A study of Arabidopsis thaliana with 16 samples.

Results

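IAA20 (AT2G46990), IAA29 (AT4G32280) and IAA30 (AT3G62100) are members of the Aux/IAA family of auxin-response repressors. They were chosen as the genes that the array annotation names so, each with 1 probe set, which gives 3 of the 22746 probe sets that are not controls. This choice was made with earlier results of these data known. The RNA came from roots of Arabidopsis thaliana seedlings, 5 days old, and each of 16 samples had its own Affymetrix array. Every seedling, controls included, carried gPUCHI:GR in the puchi-1 mutant, so an AP2/ERF factor, PUCHI, was made as a glucocorticoid receptor (GR) fusion from the regulatory region of the gene itself, in the cells where that region is active.

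The 8 groups had 2 replicates each and lasted 4 h. They were a mock with 0.1% DMSO, 2 µM DEX (dexamethasone, which lets the fusion protein enter the nucleus), 1 µM NAA (a synthetic auxin), 10 µM CHX (cycloheximide, an inhibitor of protein synthesis), NAA+DEX, DEX+CHX, NAA+CHX and NAA+DEX+CHX. The series describes the replicates as independent sets of RNA, and nothing says whether the seedlings were grown separately. No group lacked the transgene, so an effect of DEX itself was not measured here.

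Aux/IAA proteins bind auxin response factors at auxin-responsive promoters and recruit TOPLESS corepressors. Auxin joins most of them to the TIR1/AFB receptors through a degron, domain II, which leads to their breakdown, and it raises the transcription of many of their genes, a negative feedback. Domain II is absent from IAA20 and IAA30, which are long-lived proteins and limit protoxylem formation in the root, while IAA29 is also known as a gene induced in shade. Many Aux/IAA genes are primary auxin response genes, whose transcripts rise without new protein synthesis, and protein synthesis inhibitors alone are long known to raise some of them. PUCHI acts after auxin in lateral root formation.

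Array intensities had replicate correlations of 0.983 to 0.989 across probe sets, which are not independent, and medians of 7.58 to 7.68 on the log2 scale. With 2 arrays a group, precision is set by their number. Of 13 root markers, 4 were measured by name (the root hair expansins EXPA7 and EXPA18, GSO1 and BBM). None was at 0, and their summed intensity was 2712 to 3143 on arrays without NAA or CHX and 1912 to 2380 on the others. The 4 did not shift alike. EXPA18 and EXPA7, most of the sum in the mock, had means of 1515 and 888.0 there and 519.5 and 537.6 with NAA+CHX. GSO1 and BBM had 451.7 and 130.6 in the mock and 692.5 and 365.4 with NAA+CHX, while GSO1 was at 296.4 with NAA. Rubisco activase (RCA), the 1 of 6 green tissue markers measured by name, was at 541 to 719 on arrays without NAA or CHX and at 309 to 447 on the others. In bulk roots, a change in the number of cells of a type and in RNA per cell cannot be told apart. The part of these shifts in the results was not tested. The PUCHI probe set, which does not tell the fusion gene from the mutant gene, read 220.5 and 195.3 in the mock and 1696 and 1845 with NAA. With CHX it read 427.0 and 412.1, and with NAA+CHX 456.0 and 411.0. With DEX it read 117.1 and 103.9, with NAA+DEX 1916 and 1756, with DEX+CHX 348.6 and 442.9, and with NAA+DEX+CHX 338.8 and 431.4. The backgrounds of the DEX comparisons thus differed in this signal, and the part of that in the results was not tested.

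IAA29 was low in roots without NAA or CHX. Its 2 arrays read 24.6 and 37.3 in the mock and 16.5 and 21.5 with DEX. After NAA they read 2740 and 3192, and after NAA+DEX 2726 and 2658. The 4 arrays with NAA and no CHX stood far above the 4 without either compound, with no overlap.

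CHX alone brought IAA29 to 101.5 and 136.9, and DEX+CHX to 91.0 and 108.1. With NAA+CHX the arrays read 255.8 and 226.9, and with NAA+DEX+CHX 263.1 and 249.8. Every array with both compounds thus lay above every array with CHX alone and below every array with NAA alone. In the order of the 8 group means, the pairs DEX+CHX with CHX and NAA+CHX with NAA+DEX+CHX overlapped, while the other neighbours were apart.

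IAA30 was also low without NAA or CHX, at 74.5 and 75.4 in the mock and 71.2 and 88.5 with DEX. NAA gave 1444 and 1531, and NAA+DEX gave 1419 and 1590. CHX alone gave 1125 and 933.5, and DEX+CHX gave 1116 and 977.0. Both compounds raised this gene by themselves, and the NAA arrays did not overlap with the CHX arrays.

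The highest IAA30 intensities came from both compounds together, 1825 and 1961 with NAA+CHX and 2215 and 1815 with NAA+DEX+CHX. The order of the group means ran from the mock and DEX through CHX and DEX+CHX, then NAA and NAA+DEX, to the arrays with both. In each of these 4 steps the 2 groups that differ only by DEX overlapped, and the steps themselves were apart.

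IAA20 covered a narrower range, from 38.3 to 419.6. The mock arrays read 67.7 and 39.4 and the DEX arrays 40.6 and 38.3, which overlapped. NAA gave 159.9 and 190.7, and NAA+DEX gave 273.4 and 329.8. CHX gave 115.8 and 105.5, and DEX+CHX gave 176.6 and 133.2. All arrays with 1 of the compounds lay above all arrays with neither.

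With NAA+CHX, IAA20 read 280.2 and 356.9, and with NAA+DEX+CHX 396.4 and 419.6. The pair DEX+CHX with NAA and the pair NAA+DEX with NAA+CHX overlapped in the order of the group means, as did DEX with the mock. Its arrays with DEX were the higher ones in each background with NAA or CHX. Intensities of different probe sets are not comparable as transcript amounts, so the text compares levels within each gene and changes between genes.

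**Figure D1:**
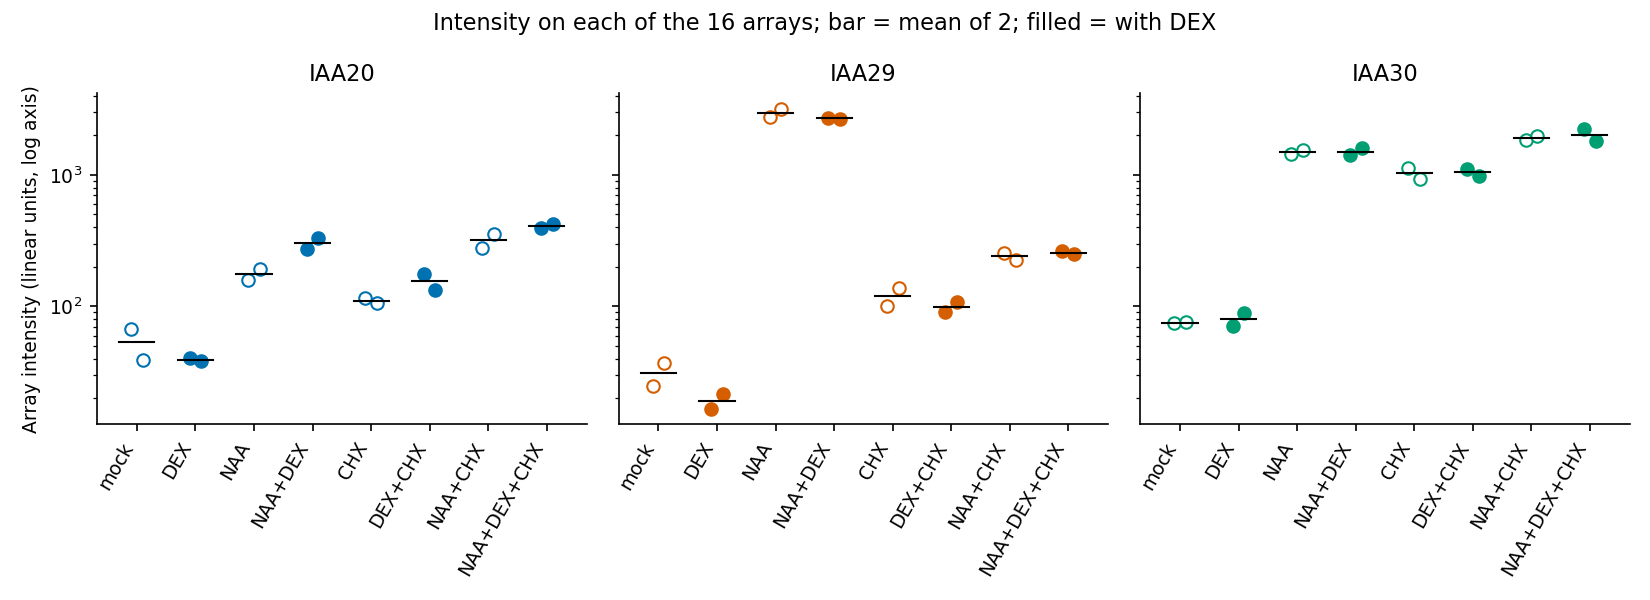
Intensity of the IAA20, IAA29 and IAA30 probe sets on each of the 16 arrays (linear units on a log axis), by treatment group; points are arrays, filled with DEX and open without, and bars are means of 2. IAA29 reaches 2658 to 3192 with NAA and no CHX and 226.9 to 263.1 with NAA and CHX, while IAA30 is at 933.5 or more in every group with NAA or CHX.

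The response to NAA was tested in a linear model over all 16 arrays on log2(intensity + 16), a scale that understates changes of low intensities. A probe set was called at a limma adjusted p under 0.05 over all 22746 probe sets. Of the 3 genes, 3 rose with NAA without DEX or CHX, where 13.6% of all probe sets were called as rises. IAA29 rose by 6.0 (SE 0.172, limma adjusted p 2.78e-13, 2 arrays a group), which is 63.9-fold with a 95% interval of 49.6 to 82.4. That change had rank 2 from the highest among the 22746. No detection calls were used, so the mock intensities of IAA29 (24.6 and 37.3) and IAA20 (67.7 and 39.4) may not be above background, and these folds and intervals hold for the intensities as deposited. IAA30 rose by 4.05 (SE 0.126, limma adjusted p 7.58e-13), or 16.5-fold with an interval of 13.7 to 19.9, at rank 29. IAA20 rose by 1.49 (SE 0.213, limma adjusted p 5.31e-05), or 2.8-fold with an interval of 2.05 to 3.83, at rank 366.

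With DEX present the NAA changes were 6.28 for IAA29, 3.99 for IAA30 and 2.51 for IAA20, all called, beside 13.5% of probe sets called as rises. The size of these changes rests on the added 16, since the untreated intensities were low. With 1 added instead, the changes without DEX were 6.56, 4.29 and 1.74, and with 64 added they were 5.0, 3.48 and 1.03, in the order IAA29, IAA30 and IAA20.

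Whether NAA raised these transcripts when protein synthesis was inhibited was asked by comparing NAA+CHX with CHX. Here 0.339% of probe sets were called as rises in limma, and all 3 genes were among them. IAA20 rose by 1.39 (SE 0.213, limma adjusted p 0.00324, 2 arrays a group), IAA29 by 0.94 (SE 0.172, limma adjusted p 0.0104) and IAA30 by 0.87 (SE 0.126, limma adjusted p 0.002). These are rises of 2.63-fold, 1.92-fold and 1.83-fold. The IAA20 rise had rank 20 among all probe sets, against ranks of 150 and 218 for the other two.

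In the arrays with DEX, NAA with CHX gave 1.32 for IAA20, 1.24 for IAA29 and 0.93 for IAA30 (limma adjusted p 0.0048, 0.00153 and 0.00125), where 0.29% of probe sets were called as rises. On one pair of GAPDH control probe sets, the ratio of 3' to 5' signal was 0.951 and 0.984 with CHX and 1.04 and 1.11 with NAA+CHX. It was 0.959 and 0.9748 with DEX+CHX and 1.27 and 1.18 with NAA+DEX+CHX. On another pair the arrays overlapped, at 1.24 and 1.06 with CHX and 0.957 and 1.34 with NAA+CHX. With DEX+CHX that pair gave 1.11 and 0.763, and with NAA+DEX+CHX 0.96 and 1.57, which also overlapped. The part of these ratios in these changes was not tested. The call of IAA29 without DEX ended without CHX replicate 1 (0.75), NAA+CHX replicate 1 (0.86) or NAA+CHX replicate 2 (1.02). That of IAA20 ended without NAA+CHX replicate 2 (1.23) and, among arrays with DEX, without DEX+CHX replicate 2 (1.14). With only the 4 arrays compared, which leaves 2 residual degrees of freedom, none of the 6 values passed, although the changes were the same.

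**Figure D2:**
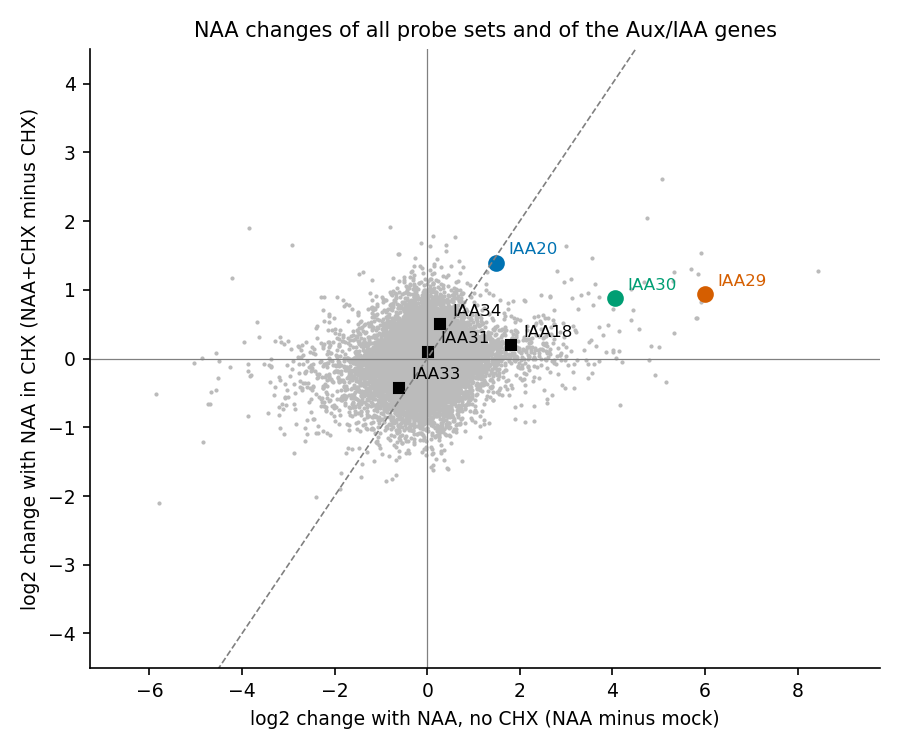
The log2 change with NAA in CHX (NAA+CHX minus CHX, y axis) against the log2 change with NAA alone (NAA minus mock, x axis) for all 22746 probe sets in grey, the 3 genes as coloured circles and the other 4 measured Aux/IAA genes as black squares; the dashed line marks equal changes. IAA20 lies near the line at 1.49 and 1.39, while IAA30 (4.05 and 0.87) and IAA29 (6.0 and 0.94) lie far below it.

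CHX alone raised all 3 genes, in a comparison where 25.8% of probe sets were called as rises and 56.2% in either direction. IAA30 rose by 3.52 (SE 0.126, limma adjusted p 2.18e-13, 2 arrays a group), or 11.4-fold with an interval of 9.51 to 13.8. IAA29 rose by 1.53 (SE 0.172, limma adjusted p 6.95e-07) and IAA20 by 0.89 (SE 0.213, limma adjusted p 0.00167). The 3'/5' signal ratio of GAPDH control probe sets, a measure related to RNA integrity, was 1.53 and 1.495 on the mock arrays and 1.24 and 1.06 on the CHX arrays. On another pair of GAPDH control probe sets it was 1.064 and 1.056 on the mock arrays and 0.951 and 0.984 on the CHX arrays. The part of these ratios in these changes was not tested. In the arrays with DEX the CHX changes were 3.47, 1.72 and 1.61 in the same order, all called beside 25.1% of probe sets called as rises. For IAA30 these CHX changes had ranks of 704 and 716 from the highest.

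In roots that also received NAA the genes parted. IAA29 fell by 3.53 with CHX (SE 0.172, limma adjusted p 1.33e-11, n = 2 against 2), a fall of 11.6-fold, beside 31.6% of probe sets called as falls. It had rank 167 from the lowest change. IAA20 rose by 0.80 (SE 0.213, limma adjusted p 0.00382) and IAA30 by 0.34 (SE 0.126, limma adjusted p 0.0274), beside 25.1% called as rises. With NAA and DEX, IAA29 fell by 3.31 (31.6% of probe sets called as falls) and IAA30 rose by 0.41 (limma adjusted p 0.00954, 25.5% called as rises). IAA20 had a value of 0.42 there that did not pass (limma adjusted p 0.105, interval -0.03 to 0.87). The GAPDH 3'/5' ratio was 1.52 and 1.51 on the NAA arrays and 0.957 and 1.34 on the NAA+CHX arrays. On another pair of GAPDH control probe sets it was 1.096 and 1.15 against 1.04 and 1.11. With DEX the first pair gave 0.877 and 1.32 for NAA+DEX and 0.96 and 1.57 for NAA+DEX+CHX. The other pair gave 1.19 and 1.13 against 1.27 and 1.18. The part of these ratios in these changes was not tested.

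The calls of the small IAA30 rises did not hold in every fit that left out 1 array. Their values stayed at 0.29 to 0.40 with NAA and at 0.27 to 0.56 with NAA and DEX. Without NAA replicate 1 (0.30), NAA replicate 2 (0.39) or NAA+CHX replicate 2 (0.29) the call with NAA ended, as it did without the variance trend (limma adjusted p 0.0644). With NAA and DEX it ended without NAA+DEX replicate 1 (0.33) or NAA+DEX+CHX replicate 1 (0.27). The IAA20 call with NAA ended without NAA+CHX replicate 2 (0.64, limma adjusted p 0.0546). No fit that left out 1 array ended a call of IAA29 in these CHX comparisons.

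Against roots without either compound, NAA and CHX together raised IAA30 by 4.39 without DEX and 4.40 with DEX, or 21.0-fold and 21.2-fold. IAA29 rose by 2.47 and 2.96, and IAA20 by 2.29 and 2.94, all called in limma beside 25.6% and 25.1% of probe sets called as rises. For IAA29 this was far less than its rise with NAA alone.

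**Figure D3:**
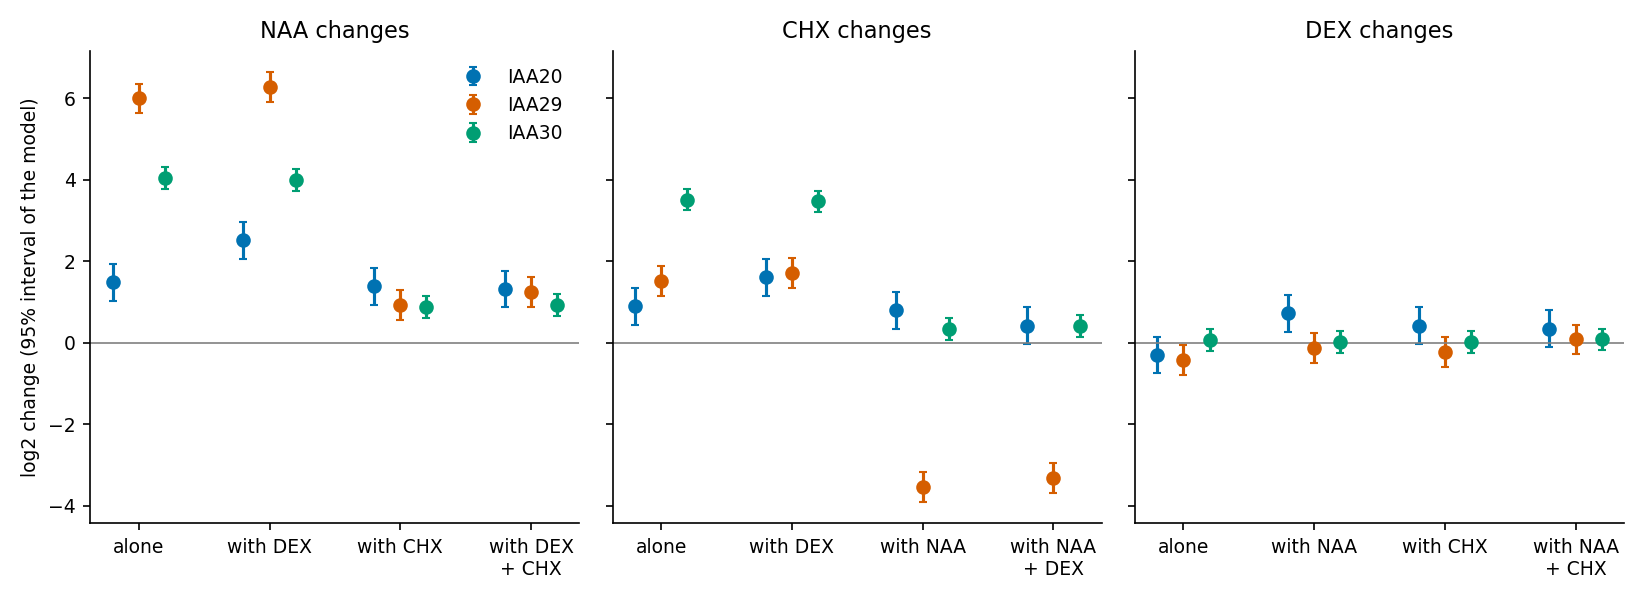
log2 changes with NAA, with CHX and with DEX for IAA20, IAA29 and IAA30, each in 4 backgrounds (x axis); points are model estimates from 2 arrays against 2 and bars are 95% intervals. The NAA changes of IAA29 and IAA30 shrink from 6.0 and 4.05 to 0.94 and 0.87 with CHX, the CHX change of IAA29 turns from 1.53 to -3.53 with NAA, and the DEX changes lie between -0.41 and 0.73.

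The dependence of the NAA response on CHX was tested as an interaction, the NAA change with CHX minus that without. For IAA29 it was -5.06 (SE 0.244, limma adjusted p 8.81e-10), at rank 7 from the lowest of the 22746. For IAA30 it was -3.17 (SE 0.178, limma adjusted p 4.67e-09). Negative interactions were called for 7.57% of all probe sets. IAA20 had a value of -0.09 (limma adjusted p 0.90) with an interval of -0.73 to 0.55, so a loss of its whole NAA change of 1.49 lies outside the interval. The sign of that value turned after quantile normalization (0.025) and with 64 added (0.09).

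Among the arrays with DEX the interaction was -5.04 for IAA29, -3.06 for IAA30 and -1.19 for IAA20 (limma adjusted p 9.47e-10, 5.10e-09 and 0.0123), where 7.55% of probe sets were called as falls. The IAA20 call ended without DEX+CHX replicate 1 (-1.01) or NAA+DEX replicate 2 (-1.06). The difference between its interactions with and without DEX was -1.098 (SE 0.426), which did not pass over all probe sets (limma adjusted p 0.981, where 0.0132% were called). It is thus not shown that DEX changed how IAA20 responded to NAA and CHX.

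On the linear scale the gains in mean intensity can be set side by side without an added constant. For IAA20 NAA alone gained 121.8 units over the mock and CHX alone 57.1, a sum of 178.8, and both together gained 265.0. With DEX the single gains of 262.2 and 115.5 summed to 377.6, and the joint gain was 368.6. IAA20 thus had a joint gain above the sum without DEX and close to it with DEX, with 2 arrays behind each mean.

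For IAA30 the single gains without DEX were 1413 and 954.3, a sum of 2367, and the joint gain was 1818. With DEX the sum was 2391 and the joint gain 1935, so both fell short of the sum. The joint gain of IAA29 was 210.4, against 2935 for NAA and 88.3 for CHX, and with DEX it was 237.5 against 2673 and 80.5. Its mean intensity with NAA+CHX was 8.14% of that with NAA, and with DEX the share was 9.53%. For IAA30 those shares were 127.3% and 134.0%, and for IAA20 181.7% and 135.3%.

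**Figure D4:**
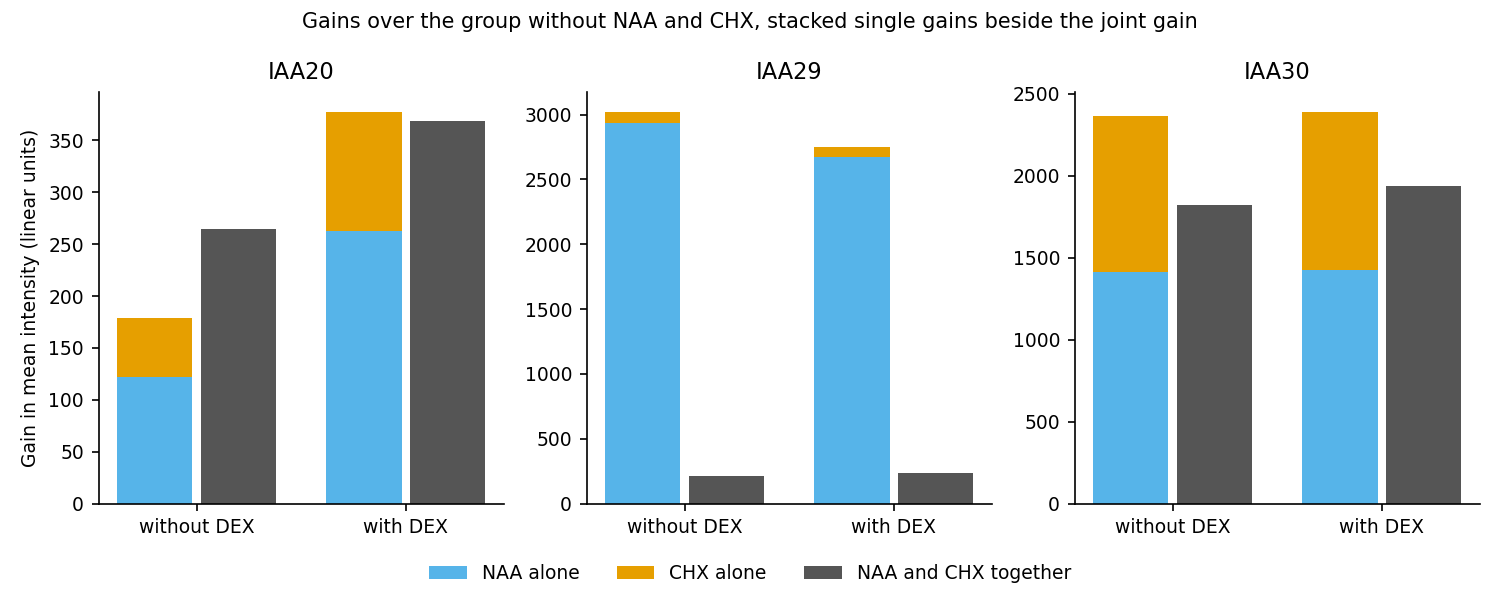
Gain in mean array intensity (linear units, own axis for each gene) over the group without NAA and CHX, without and with DEX; stacked bars add the gains of NAA alone and CHX alone, and grey bars show the gain of both together. The grey bar is above the stack for IAA20 without DEX (265.0 against 178.8), below it for IAA30 (1818 against 2367) and far below it for IAA29 (210.4 against 3023).

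Whether the 3 genes responded differently from each other was tested on their difference within each array, 4 arrays against 4 with the DEX states pooled. Each of the 12 tests was an exact 2-sided permutation test whose smallest p is 0.0286, adjusted over the 12. The adjusted p of a test at that smallest p depends on how many of the 12 reach it, so it does not rank the pairs. Without CHX, the NAA response of IAA29 exceeded that of IAA30 by 2.12, and those of IAA20 were 4.14 and 2.02 smaller than those of IAA29 and IAA30. All 3 differences had an exact p of 0.0286 (adjusted 0.049). With CHX, the NAA responses were 1.36 for IAA20, 1.09 for IAA29 and 0.90 for IAA30, and none of the 3 differences passed (exact adjusted p 0.0857 to 0.371). That does not show that the responses were alike.

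For CHX without NAA, the response of IAA30 at 3.49 exceeded those of IAA29 at 1.62 and of IAA20 at 1.25 (exact p 0.0286 and adjusted 0.049 for both). The difference between IAA20 and IAA29 was -0.37 and did not pass (exact adjusted p 0.371). For CHX with NAA, IAA29 at -3.42 lay below IAA20 at 0.61 and IAA30 at 0.38 (exact p 0.0286 and adjusted 0.049 for both). IAA20 and IAA30 differed by 0.23, which did not pass.

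The effect of DEX asks whether activated PUCHI-GR changed these repressors. None of the 3 genes was called with DEX in any of the 4 backgrounds or on average, where 0.022%, 0.0352%, 0.0132%, 0.0308% and 0.0791% of probe sets were called in limma, in either direction. The order is DEX alone, in NAA, in CHX, in NAA+CHX, and the mean of these. At an unadjusted p under 0.05 there were 1068, 1634, 1508, 1722 and 1581 probe sets in the same comparisons. Among the 3 genes and 5 comparisons, 3 values had such a p, IAA29 with DEX alone and IAA20 with NAA and on average.

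IAA20 had the largest DEX value of the 3 genes, 0.73 with NAA (SE 0.213, interval 0.28 to 1.18, limma adjusted p 0.362, n = 2 against 2). The NAA+DEX arrays at 273.4 and 329.8 lay above the NAA arrays at 159.9 and 190.7. Its values were 0.42 with CHX, 0.35 with both and -0.30 with DEX alone, and 0.30 on average (SE 0.107, interval 0.08 to 0.53, limma adjusted p 0.585). With 1 array left out at a time, these ranged from 0.24 to 0.61 with CHX, 0.18 to 0.52 with both and -0.59 to -0.00019 with DEX alone. The GAPDH 3'/5' ratio was 0.877 and 1.32 on the NAA+DEX arrays and 1.51 and 1.52 on the NAA arrays. On another pair of GAPDH control probe sets it was 1.13 and 1.19 against 1.096 and 1.15. The part of these ratios in the IAA20 values was not tested.

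The NAA response of IAA20 was larger with DEX than without by 1.03 (SE 0.301, interval 0.39 to 1.67), a difference that did not pass over all probe sets (limma adjusted p 0.651), where 0.022% of probe sets were called. Without mock replicate 2, at 39.4 the lower of the mock arrays, and without mock replicate 1, at 67.7, it was 1.33 and 0.73. IAA29 had DEX values of -0.41 alone (limma adjusted p 0.986, interval -0.78 to -0.05), -0.14 with NAA, -0.22 with CHX and 0.08 with both. The first ranged from -0.61 to -0.22 with 1 array left out at a time. For IAA30 they were 0.07, 0.01, 0.03 and 0.08. The other interactions with DEX were not called for any of the 3 genes. For DEX by NAA with CHX (0.00879% of probe sets called) the values were -0.07 for IAA20, 0.30 for IAA29 and 0.06 for IAA30. For DEX by CHX they were 0.72, 0.20 and -0.04 without NAA (0.00879% called) and -0.38, 0.22 and 0.07 with NAA (0.022% called). The interval of the DEX average was -0.08 to 0.18 for IAA30 and -0.35 to 0.01 for IAA29.

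Of 29 Aux/IAA genes on a family list, 7 were measured by name, the other 4 being IAA18, IAA31, IAA33 and IAA34. With NAA alone, 4 of the 7 rose and none fell, beside 13.6% of all probe sets called as rises, with a median change of 1.49 beside 0.01 for all. With NAA in the presence of CHX and without DEX, 3 of the 7 rose, the 3 genes described here, beside 0.339% of all, with a median of 0.50 beside -0.01. These counts and medians include the 3 genes, which were chosen with earlier results of these data known, so they do not describe the family. Of the other 4, only IAA18 was called with NAA alone, and none was called as a rise with NAA in CHX. IAA18 rose with NAA by 1.80 (SE 0.166) and had a value of 0.20 in the presence of CHX (limma adjusted p 0.716). Its arrays read 336.9 and 291.9 in the mock, 991.0 and 1294 with NAA, and 391.8 and 404.5 with NAA+CHX. Unlike the 3 genes it had no called rise with CHX alone (0.13, limma adjusted p 0.539).

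IAA31, IAA33 and IAA34 did not pass with NAA, at 0.01, -0.62 and 0.28 (limma adjusted p 0.989, 0.233 and 0.644). IAA33 fell by 1.49 with CHX and IAA34 rose by 1.38 (limma adjusted p 0.00158 and 0.00304), from mock intensities of 59.9 and 54.3 and of 10.1 and 2.8. With DEX, IAA33 fell by 0.96 with CHX (limma adjusted p 0.0289), while IAA34 had a value of 0.35 that did not pass (limma adjusted p 0.444). IAA31 stayed between 50.9 and 107.3 on all 16 arrays. No auxin response factor (0 of 22) and no gene of the receptors, SCF subunits and corepressors (0 of 16) was measured by name.

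Of 17 other auxin-induced genes, 8 were measured by name, and 8 of 8 rose with NAA without DEX (median 3.70), beside 13.6% of all probe sets. PUCHI is 1 of these 8, so the counts and medians of this list include a probe set that does not tell the fusion gene from the mutant gene. With CHX present and without DEX, 5 of 8 rose with NAA (median 0.75), beside 0.339% of all. With both DEX and CHX present, 3 of 8 rose with NAA (0.29% of all) and 1 fell, with a median of 0.49. The gene that fell was GH3.17 (-0.41, limma adjusted p 0.024), named here after its values were seen. The 4 with the largest rise with NAA were the auxin-conjugating enzymes GH3.3 (8.43), GH3.1 (5.80) and WES1 (4.40) and the lateral root regulator LBD29 (5.86). Under CHX without DEX their NAA changes were 1.28, 0.59, 1.01 and 1.23. Without DEX, the interaction of NAA with CHX was negative and called for 8 of these 8 genes, beside 7.57% of all probe sets, and among the 3 repressor genes for IAA29 and IAA30. With DEX it was so for 8 of these 8, beside 7.55% of all, and for IAA20 too. IAA18 had called interactions of -1.60 without and -1.99 with DEX.

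Genes of similar pattern were sought by Pearson's r over the 8 group means among 7345 named genes whose group means ranged over at least 1 on the log2 scale. The points share their libraries, so r is a description only. For IAA29 the 5 highest were WES1 (r 0.995), LBD29 (0.992), AT3G28420 (0.992), AT4G22610 (0.991) and AT5G67430 (0.985). All 5 had NAA changes of 1.68 to 5.86 without CHX and CHX changes of -2.77 to -0.99 in the presence of NAA. For IAA30 they were AT4G14390 (r 0.993), AT5G53900 (0.990), GH3.1 (0.989), the homeodomain-leucine zipper gene HAT2 (0.988) and AT5G47440 (0.987). Those 5 had CHX changes of 1.59 to 4.82 without NAA and changes of -0.39 to 0.91 with it.

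IAA20 had looser matches, AT4G29360 (r 0.951), the glutaredoxin gene ROXY1 (0.949), AT4G33230 (0.946), the serine carboxypeptidase-like gene scpl28 (0.939) and AT4G11340 (0.935). AT4G33230 had group means of only 1.51 to 22.1. Only 1 named gene reached an r of 0.95 with IAA20, against 38 with IAA29 and 44 with IAA30. Among themselves, IAA20 and IAA30 had an r of 0.919, IAA29 and IAA30 of 0.703 and IAA20 and IAA29 of 0.667. By Spearman's rho over the same means, 4 of the 5 genes of IAA20, 0 of those of IAA29 and 1 of those of IAA30 were again among the highest 5.

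**Figure D5:**
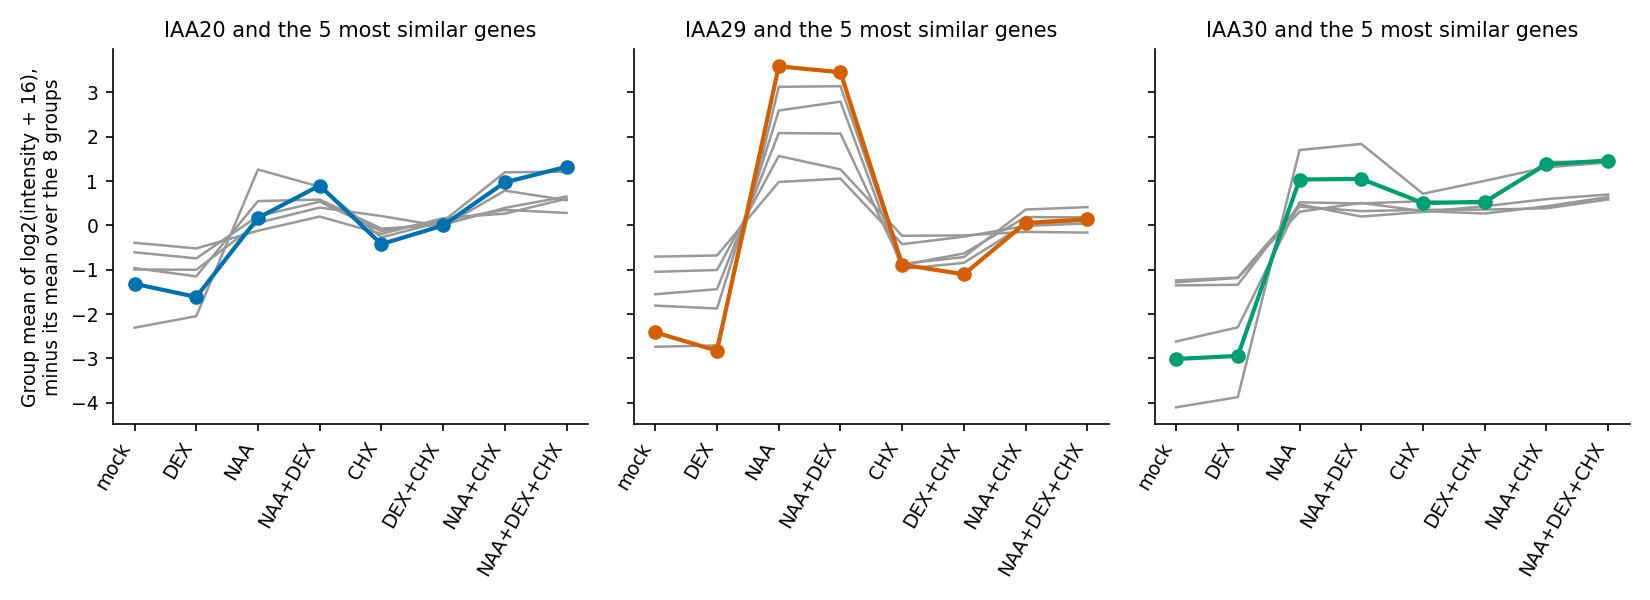
Group means of log2(intensity + 16), each gene minus its own mean over the 8 groups, for IAA20, IAA29 and IAA30 (coloured) and the 5 named genes of highest Pearson r with each (grey), by treatment group. The genes near IAA29 peak in NAA and NAA+DEX (r 0.985 to 0.995), those near IAA30 are low in the mock and DEX alone (r 0.987 to 0.993), and those near IAA20 scatter more (r 0.935 to 0.951).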

How the data were processed

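Biotin-labelled cRNA of each root RNA sample was hybridised to its own 1-colour Affymetrix 3' array. As deposited, each probe set has 1 intensity on a linear scale, and the submitters' processing notes name Affymetrix Expression Console 1.3. The sources used here give no algorithm. Scaling by the authors gave every array the same mean of 500.0 to 500.1 once the 2% of probe sets at either end were trimmed. Such scaling cannot show a shift of all transcripts, so changes are relative to the array's general level, and no detection calls were used.

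Of 22810 probe sets 64 controls were left out. The array annotation names 1 gene for 13513 of the other 22746, several for 503 and none for 8730. Symbols and loci came through gene IDs from the TAIR10.1 gene table for 13436. A gene with several probe sets was represented by that with the highest mean.

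A model with 1 mean per group was fitted to log2(intensity + 16) for the 16 arrays together by limma 3.58.1 (R 4.3.3), using a variance trend (8 residual and 7.94 prior degrees of freedom). Benjamini-Hochberg adjustment ran within each of 22 comparisons, and tests are 2-sided. Changes carry the model's SE, and intervals are its 95% intervals. Exact permutation tests used scipy 1.17.1. The fits were tested on simulated data. Equal replicate numbers did not pair arrays, since their deviations from the group means correlated by -0.05 to 0.06.

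The members, lists and tests were chosen with earlier results of these data known. Named are the members, the 5 genes of most similar pattern each, all measured Aux/IAA genes, up to 4 genes of the other lists with the largest NAA change, and PUCHI. Alternatives were quantile normalization, a filter that kept the brightest 60% of probe sets, a replicate block, no variance trend, pseudocounts of 1 and 64, only the arrays compared, a minimum 2-fold change, Spearman's rho, and leaving out each array. Sequences were not used here.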

Additional observations from a re-analysis of the deposited data

Results flagged for a closer look

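In 5 tests the response to NAA differed between roots with and without CHX for a gene of the set, by limma's interaction term over all 22746 probe sets. Without DEX, the interaction was -5.06 on the log2 scale for IAA29 (limma adjusted p 8.81e-10) and -3.17 for IAA30 (limma adjusted p 4.67e-09). With DEX it was -5.04 for IAA29 (limma adjusted p 9.47e-10), -3.06 for IAA30 (limma adjusted p 5.10e-09) and -1.19 for IAA20 (limma adjusted p 0.0123). Negative interactions were called for 7.57% of all probe sets without DEX and 7.55% with DEX. IAA20 without DEX was not called, at -0.09 (limma adjusted p 0.90). Its call with DEX ended without DEX+CHX replicate 1 (-1.01) or NAA+DEX replicate 2 (-1.06). The groups of 2 arrays were too small to test single arrays that lie apart.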

How the results depend on the processing

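All values are log2 changes, with limma adjusted p in brackets. Over the alternatives other than leaving out an array, 538 values of the 3 genes kept direction and side of the threshold, 14 lost a call, 2 gained one and 4 changed sign. For IAA20 the interaction of NAA with CHX without DEX, not called, turned to 0.025 after quantile normalization and 0.091 with 64 added. The 3-way interaction of IAA29 turned to -0.19 with 1 added, and the difference between IAA29 and IAA30 in the NAA response with CHX turned to -0.016 with 64 added. Without a variance trend, IAA30 with CHX and NAA (0.34) lost its call (0.0644). The IAA20 change with CHX in NAA and DEX gained one with 64 added (0.37) and on only the arrays compared (0.42). On only the arrays compared, where 2 residual degrees of freedom are left, NAA with CHX lost its calls at 1.39, 0.94 and 0.87 for IAA20, IAA29 and IAA30, and with DEX too at 1.32, 1.24 and 0.93. A minimum 2-fold change removed IAA29 (0.94) and IAA30 (0.87) with NAA in CHX, IAA30 with NAA in DEX and CHX (0.93), IAA20 with CHX (0.89) and with CHX in NAA (0.80), and IAA30 with CHX in NAA (0.34) and in NAA and DEX (0.41), which lie below that fold. The cause was not tested for the others.

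With 1 array left out at a time, 1107 values were counted as kept, 13 lost a call and 32 changed sign. Among those kept, the limma values held direction and side of the threshold. Each limma comparison was refitted without each of the 16 arrays in turn. Leaving out an array outside the groups compared cannot move the change itself, only its SE and adjusted p. Many of the 1107 values were thus bound to keep their direction. The differences between genes were judged only by direction and by a shift smaller than their SD between arrays. Their side of the threshold was not judged, and an exact permutation test of 3 against 4 arrays has a smallest p of 0.0571. For IAA20 the ranges were 1.23 to 1.56 with NAA in CHX, 1.14 to 1.51 with NAA in DEX and CHX, 0.64 to 0.97 with CHX in NAA, -0.39 to 0.20 and -1.38 to -1.01 for NAA by CHX without and with DEX, and -0.25 to 0.11 for DEX by NAA with CHX. For IAA29 they were 0.75 to 1.13 with NAA in CHX, -0.00028 to 0.39 for DEX by CHX without NAA and -0.17 to 0.22 for the 3-way interaction. For IAA30 they were 0.29 to 0.40 with CHX in NAA and 0.27 to 0.56 with NAA and DEX too. The DEX changes of IAA29, none called, ranged from -0.24 to -0.026 with NAA, -0.41 to -0.028 with CHX and 0.0031 to 0.17 with both. Those of IAA30, none called, ranged from -0.060 to 0.20 alone, -0.067 to 0.10 with NAA, -0.11 to 0.16 with CHX and -0.059 to 0.23 with both. The interactions of IAA30 ranged from -0.19 to 0.074 and -0.086 to 0.20 for DEX by NAA without and with CHX, -0.18 to 0.089 and -0.074 to 0.21 for DEX by CHX without and with NAA, and -0.030 to 0.26 for the 3-way term. Leaving arrays out of the differences between genes was chosen after seeing the data.

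The replicate numbers did not pair arrays. With the number as a block, no call of the 3 genes changed (IAA20 with NAA stayed at 1.49), and the probe sets called went from 8 to 4 for DEX with NAA, 7 to 4 for DEX with both, 5 to 3 for DEX by NAA without CHX and 3 to 0 for the 3-way interaction. Over all alternatives, the probe sets called with NAA in CHX numbered 16 to 398 (293 in the model as reported) and with DEX too 24 to 388 (297). The 5 DEX comparisons had 0 to 17, 0 to 40, 0 to 11, 0 to 12 and 4 to 23. A minimum 2-fold change left 1768 and 1952 with NAA, 7375 to 7701 with CHX, 7645 and 7621 with both, and 1498 and 1591 for NAA by CHX. Low intensities and 2 arrays a group limit the precision.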
